A study of Mus musculus with 8 samples.

Results

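Zfp36, Zfp36l1 and Zfp36l2 encode a small family of RNA-binding proteins that shorten the life of messenger RNAs. They are 3 of the 21779 mouse protein-coding genes used here. Smad4 binding around them was read from lists of called ChIP-seq peaks, taking every peak within the gene body and 50 kb on both sides. The windows of the 3 genes held 64 of the 47900 peaks in the 4 lists. WT replicate 1 contributed 34 of its 27120 peaks and WT replicate 2 contributed 29 of its 19792. From the KO lists came 1 of the 564 peaks of replicate 1 and 0 of the 424 of replicate 2. The genes were picked as a family by name, with the peak lists already seen, so the contrast of WT with KO peaks around them is a description and carries no test.

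All samples were activated CD4+ T cells taken from lymph nodes and spleens of mice on the C57BL/6 background. They were kept in IL6 plus a TGFbR inhibitor, a compound that blocks the TGF-β receptor, and sampled 12 h after treatment. WT mice were compared with CD4cre;Smad4fl/fl mice, in which Cre recombinase driven by the Cd4 gene's control elements removes a loxP-flanked part of Smad4 in the T cell lineage. Both WT samples came from females, KO replicate 1 from pooled males and females and KO replicate 2 from males, so sex and genotype cannot be told apart. There were 2 ChIP samples per genotype and 4 input samples, which were not analysed here. Apart from this, the labels leave unsaid whether replicates came from separate animals. The read depth is unknown, and each peak has a position only. A longer list can therefore come from deeper sequencing as well as from more binding, and this was not tested. Among T cell marker genes, 7 of the 7 found in the gene table had a Smad4 region called only in WT within 10 kb, as had 2 of 5 B cell markers and 0 of 5 myeloid markers. The share over all protein-coding genes was 44.3%, close to that of the B cell markers. Peak positions do not measure expression.

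The proteins of this family carry paired CCCH zinc fingers that bind AU-rich elements in the untranslated 3′ ends of messenger RNAs. They then recruit the CCR4-NOT deadenylase, which removes the poly(A) tail and starts decay. Zfp36 encodes tristetraprolin, an immediate-early protein known for restraining TNF and other cytokine transcripts. Zfp36l1 and Zfp36l2 encode its paralogues, which are known for restraining cell cycle entry and growth in developing lymphocytes. Smad4 is the SMAD protein shared by the TGF-β and BMP pathways, and the series title places the experiment in the study of how SKI and SMAD4 hold back Th17 differentiation.

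Promoter sequences are shown for the genes whose start lay under Smad4 peaks in both WT libraries. Of the 3 genes, 2 matched the RefSeq promoter table on GRCm38.p6: Zfp36 and Zfp36l1, but not Zfp36l2. Each line gives the 250 bases before the start, 5′ to 3′ on the minus strand, with every match to a searched motif in capitals. Zfp36 lies at chr7:28379229-28379478 and Zfp36l1 at chr12:80113014-80113263.
Zfp36: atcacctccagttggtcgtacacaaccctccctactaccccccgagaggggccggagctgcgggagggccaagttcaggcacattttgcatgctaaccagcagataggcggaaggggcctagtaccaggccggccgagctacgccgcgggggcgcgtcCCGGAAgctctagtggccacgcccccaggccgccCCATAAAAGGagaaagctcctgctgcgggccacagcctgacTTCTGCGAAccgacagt
Zfp36l1: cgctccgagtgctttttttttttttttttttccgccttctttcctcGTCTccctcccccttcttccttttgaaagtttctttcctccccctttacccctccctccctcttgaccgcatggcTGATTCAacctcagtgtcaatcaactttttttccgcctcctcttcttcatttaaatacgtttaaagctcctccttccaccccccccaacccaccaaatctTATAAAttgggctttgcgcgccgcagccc

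All 250 bases of both promoters lay under a peak in WT replicate 1 and in WT replicate 2, and none lay under a peak of either KO list. Among 17492 protein-coding promoters of this length, 13.1% were wholly under peaks of both WT lists and 0.257% were met by a KO peak. The Zfp36 promoter held a CCGGAA match (ETS type) starting at -92, a CArG box (the serum response factor motif) at -58 and a TTCNNNGAA match (STAT type) at -17, counted from the transcription start. The Zfp36l1 promoter held GTCT (the SMAD box) at -204, a TGANTCA match at -129 and TATAAA at -29. TGANTCA is a loose AP-1 type pattern, and the match here, TGATTCA, has T at its open base. Both strands were searched, and no matches overlapped each other. Of all 17492 promoters, 15.2% held CCGGAA, 1.39% a CArG box, 6.69% TTCNNNGAA, 81.9% GTCT, 6.22% TGANTCA and 12.4% TATAAA. Neither promoter matched CAGAC, the other strand's form of a longer SMAD box, which 40.9% of promoters held. The GC-rich SMAD motif GGCGCC (12.1% of promoters) was not matched either, nor was its variant GGCTCC (28.9%), nor the CRE motif TGACGTCA (2.01%). The bases G and C made up 64.8% of the Zfp36 sequence and 48.4% of the Zfp36l1 sequence, against a median of 55.2% over all promoters.

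All 3 genes carried Smad4 regions in WT cells, and all but 1 of those regions were absent from the KO lists. A reproducible WT region is a stretch of merged peaks with a peak from both WT lists that meet by at least 1 bp, and a WT-only region is such a region with no KO peak. The windows held 20 reproducible WT regions, of which 19 were WT-only: 7 at Zfp36, 6 at Zfp36l1 and 6 at Zfp36l2. Over the whole genome 15882 of the 16501 reproducible WT regions were WT-only, so 19 of 20 is close to the share of all regions. A WT-only region in a window of this kind is common, since 61.8% of the protein-coding genes had at least 1. Having as many was less usual: 4.62% of genes had 7 or more and 7.36% had 6 or more, and the median gene had 1. Within 10 kb of the body, where 44.3% of genes had a WT-only region, Zfp36 had 5, Zfp36l1 had 3 and Zfp36l2 had 2. As many were found at 2.29%, 8.32% and 19.1% of genes. Inside the body itself, where 34.8% of genes had a WT-only region, Zfp36 met 2, Zfp36l1 met 3 and Zfp36l2 met 2. As many were found at 9.08%, 4.08% and 9.08% of genes.

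**Figure D1:**
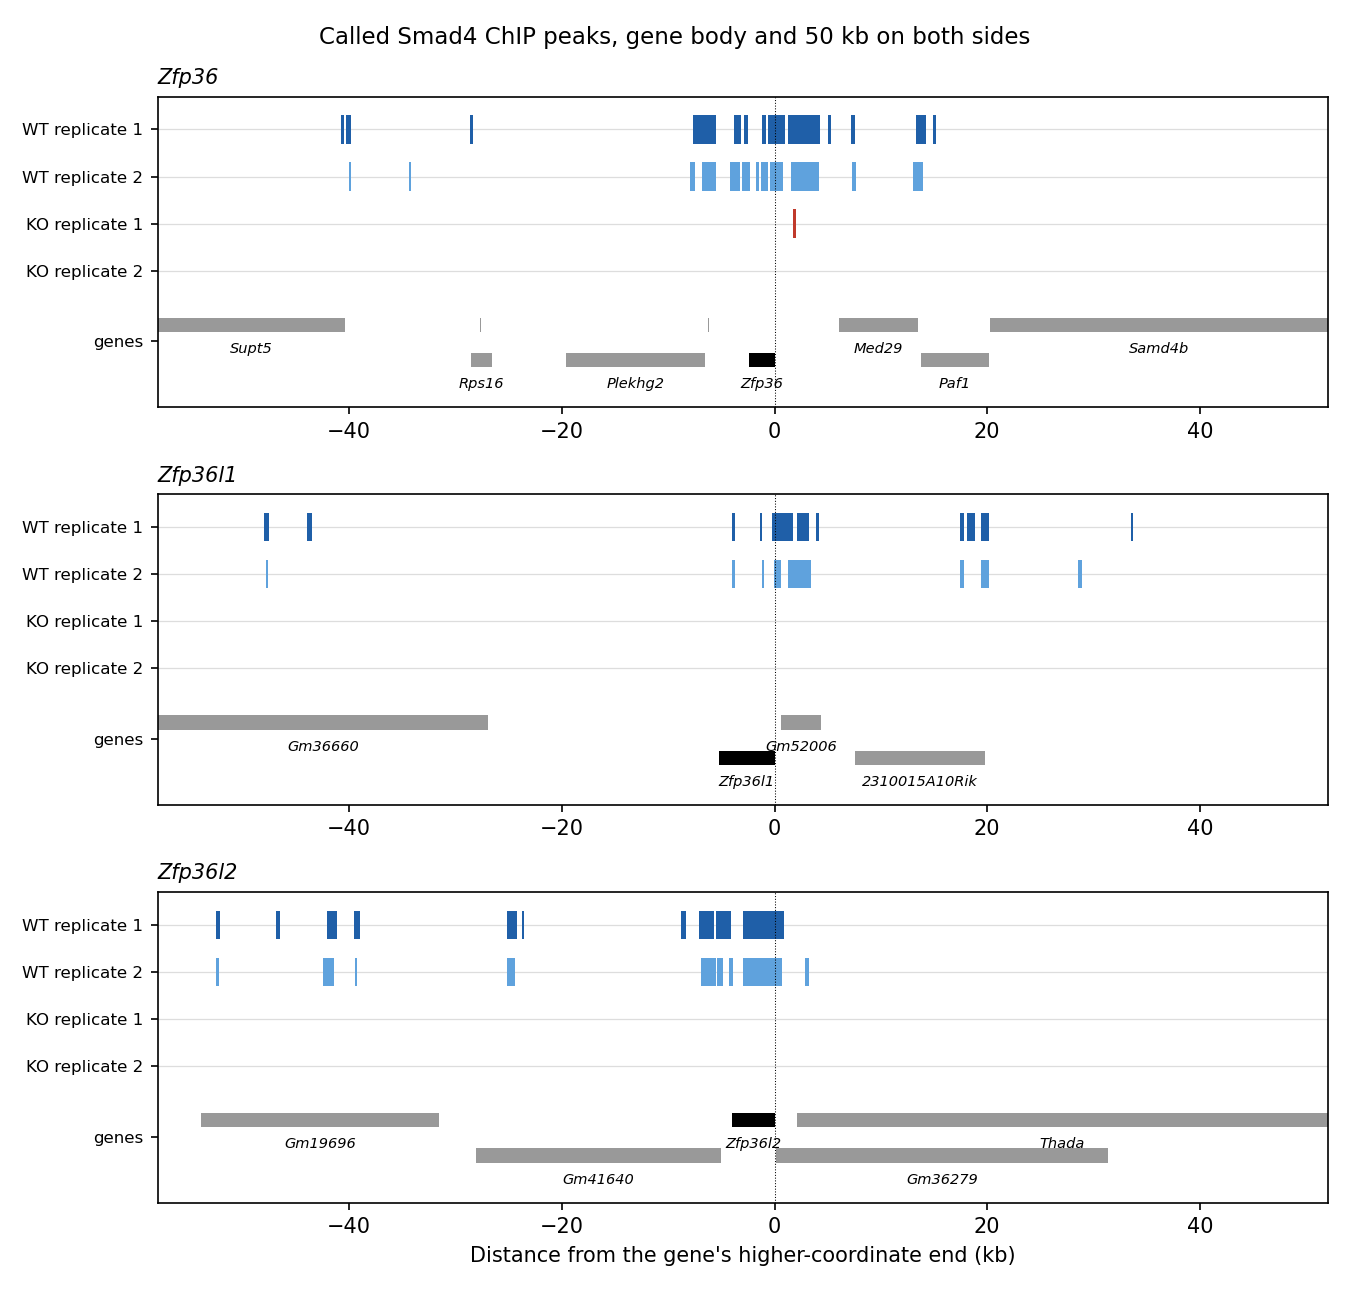
Called Smad4 ChIP peaks in the 3 windows, by library, against distance in kb from the gene's higher-coordinate end; boxes are peaks drawn to scale, the black bar is the named gene and grey bars are other RefSeq genes. In each window the widest WT peaks lie at the gene or next to it, while other WT peaks are spread farther out. The KO rows hold 1 peak, at Zfp36.

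By library, the Zfp36 window held 13 and 12 peaks of WT replicates 1 and 2, and 1 and 0 peaks of KO replicates 1 and 2. The Zfp36l1 window held 11 and 8 peaks of the WT libraries, in the same order, and none of either KO library. The Zfp36l2 window held 10 and 9 peaks of the WT libraries, and again none of KO. At each gene the lower WT count exceeded the higher KO count. A comparison of 2 samples against 2 could not give an exact permutation p under 0.333. The mean over the WT libraries was 12.5 ± 0.707 peaks at Zfp36, 9.50 ± 2.12 at Zfp36l1 and 9.50 ± 0.707 at Zfp36l2 (SD, n = 2 each). WT replicate 1 had 1.37 times the peaks of WT replicate 2 over the whole genome, and 1.17 times as many in the 3 windows together. With WT replicate 2 left out, every peak of WT replicate 1 counted and the WT-only regions rose from 19 to 33.

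By bases under peaks, Zfp36l1 stood below the other genes. Peaks of WT replicates 1 and 2 covered 10708 and 9990 bp of the Zfp36 window, 10666 and 8748 bp of the Zfp36l2 window, and 6810 and 5050 bp of the Zfp36l1 window. The Zfp36 and Zfp36l2 ranges overlapped, while both values of Zfp36l1 lay below both values of each other gene. KO replicate 1 covered 254 bp at Zfp36 and 0 bp at the other genes, and KO replicate 2 covered 0 bp at all 3.

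Zfp36 (chromosome 7, 28376784 to 28379228, gene ID 22695, 2445 bp, minus strand) stood in a run of closely spaced peaks. The region over its start (28377974 to 28380180) had peaks summing to 1944 bp in WT replicate 1 and 1832 bp in WT replicate 2. Upstream of the start, 1304 bp from the gene, the region at 28380532 to 28383453 had a peak of 2922 bp in WT replicate 1 and of 2632 bp in WT replicate 2. It was the widest region of this window, and the smaller WT peak lay wholly inside the larger. Past the other end of the gene, the region at 28376198 to 28376871 had peaks of 320 and 674 bp, of which that of WT replicate 2 crossed the gene's lower-coordinate end and that of WT replicate 1 stopped 96 bp short of it. Another followed 0.72 kb away at 28375047 to 28376064, with peaks of 638 and 896 bp. In both of these WT replicate 2 had the wider peak. Inside the gene WT replicate 1 had no peak between 28376688 and 28378057. WT replicate 2 alone had a peak of 352 bp there, at 28377445 to 28377796.

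Farther regions of the Zfp36 window lay at other genes. The region at 28371274 to 28373761, 3.02 kb away, met the end of Plekhg2 and a tRNA gene, with peaks summing to 2226 and 1848 bp in WT replicates 1 and 2. Med29, a Mediator subunit gene, held a region inside it at 28386420 to 28386869 (368 and 366 bp). The region at 28392242 to 28393427 spanned the gap between Med29 and Paf1, a gene of an elongation complex, with 870 and 906 bp. The farthest, 37.4 kb away at 28338956 to 28339403, lay 0.15 kb from Supt5, a transcription elongation factor gene, and had peaks of 394 and 242 bp. A window of this size in a gene-dense stretch, with 6 other protein-coding genes, therefore counts regions that are closer to another gene than to Zfp36. By nearest protein-coding gene, 3 WT-only regions were assigned to Zfp36 in place of 7.

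The only KO peak near any of the 3 genes lay in the upstream region of Zfp36. KO replicate 1 had a peak at 28381002 to 28381255, which begins 1774 bp beyond the start of transcription. It was 254 bp wide, the smallest width in that list, which 48.0% of its peaks shared. Its centre lay 864 bp from the centre of the WT replicate 1 peak and 955 bp from that of WT replicate 2, towards the gene. The nearest peak of KO replicate 2 was 2694 kb away. A KO peak within 50 kb was found at 5.26% of protein-coding genes and within 10 kb at 2.42%. The nearest KO peak of either list was 465 kb from Zfp36l1 and 3411 kb from Zfp36l2. With KO replicate 1 left out, the Zfp36 window had 8 WT-only regions in place of 7.

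**Figure D2:**
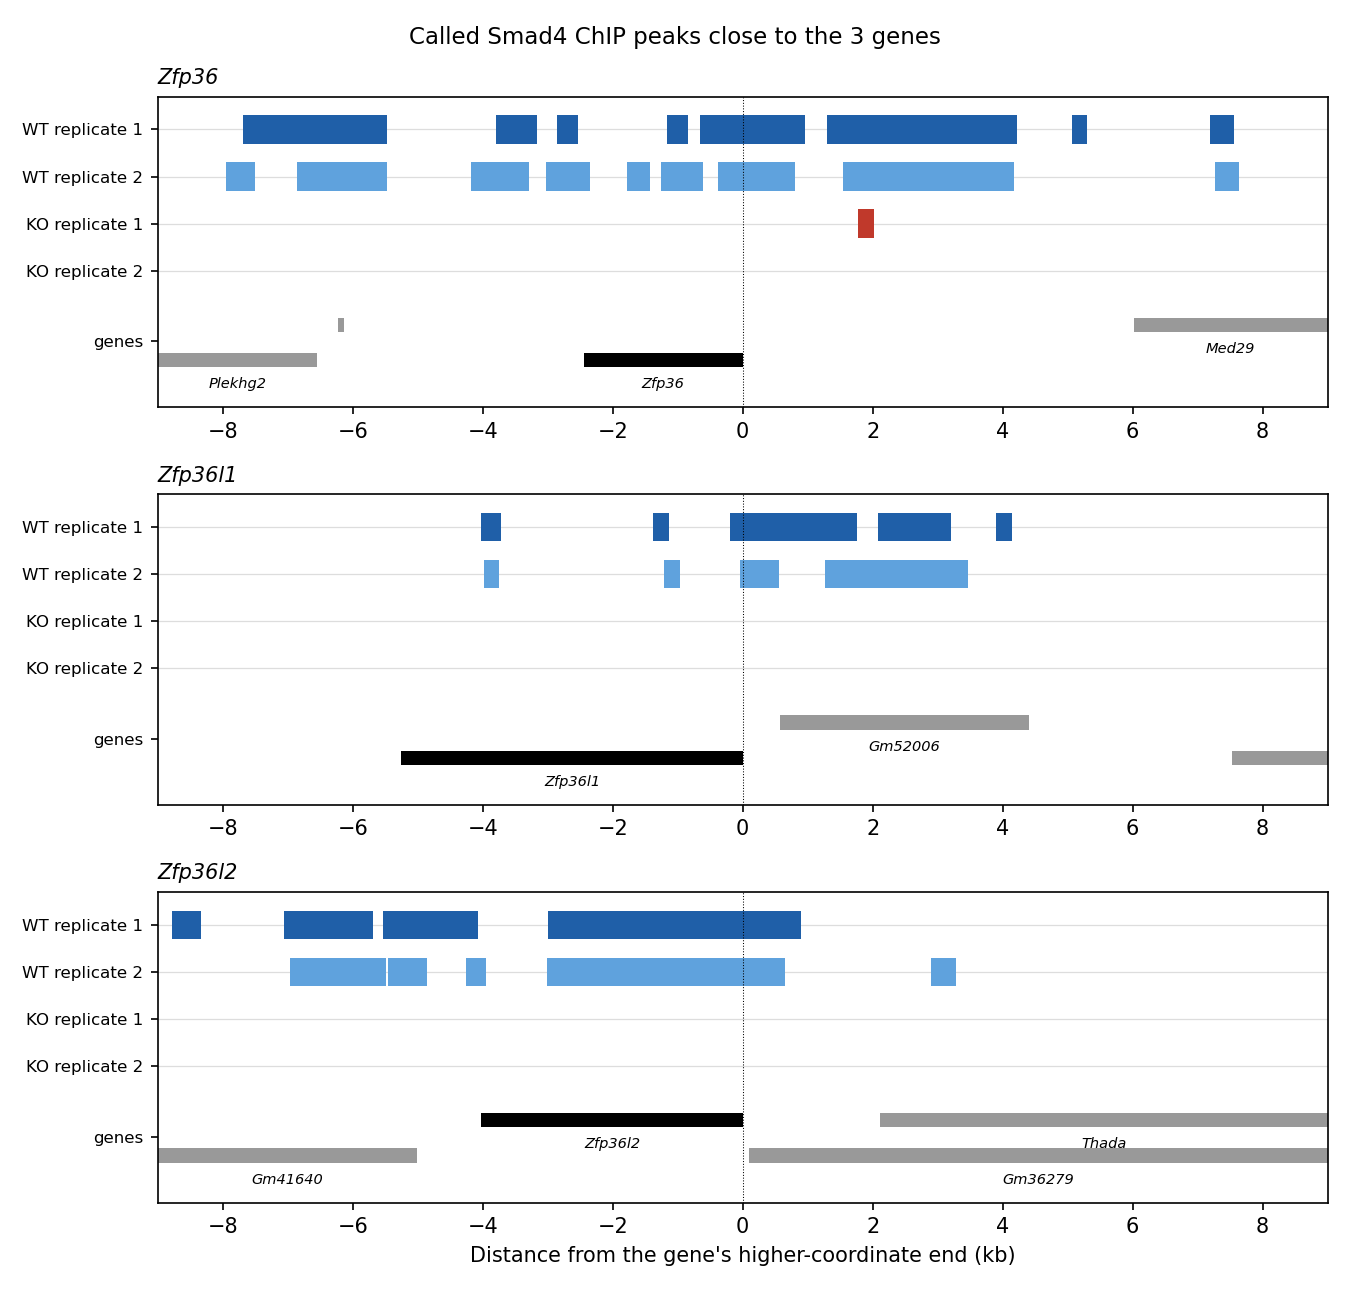
Called peaks close to the 3 genes, by library, against distance in kb from the gene's higher-coordinate end, which is the start of transcription of Zfp36 and Zfp36l1; boxes are peaks and bars are genes, both to scale. Peaks of both WT libraries span the higher-coordinate end of all 3 genes, and the KO replicate 1 peak sits inside the upstream WT peaks of Zfp36.

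Zfp36l1 (chromosome 12, 80107760 to 80113013, gene ID 12192, 5254 bp, minus strand) had 1 dominant region over its start. It ran from 80112816 to 80116477 and reached into Gm52006, a predicted gene 0.57 kb upstream. WT replicate 1 placed peaks of 1958 and 1122 bp there and WT replicate 2 peaks of 610 and 2200 bp. Both libraries thus had 1 peak over the start and 1 upstream of it, but the wider peak was at the start in WT replicate 1 and upstream in WT replicate 2. Their union overlapped by 60.8%. Inside the gene lay 2 narrow regions, at 80108990 to 80109291 (302 and 242 bp in WT replicates 1 and 2) and at 80111637 to 80112051 (240 and 242 bp). In the second of these the peaks met over only 67 bp, which made it the least matched region of the 3 windows, with an overlap of 16.1% of the union.

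Outside the Zfp36l1 gene, WT-only regions lay at 80130470 to 80130833 (364 and 314 bp) and 80132414 to 80133220 (782 and 798 bp), 17.5 and 19.4 kb upstream. The second had the closest match of the 20 regions, with an overlap of 95.8% of the union. The remaining region, at 80065014 to 80065453 (440 and 242 bp), lay 42.3 kb downstream. No reproducible region fell between 5 and 10 kb of Zfp36l1.

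Zfp36l2 (chromosome 17, 84183924 to 84187947, gene ID 12193, 4024 bp) was covered by the widest region of the family. That region ran from 84184940 to 84188845, with a peak of 3902 bp in WT replicate 1 and of 3666 bp in WT replicate 2. The lower edges of the peaks were 4 bp apart and the upper edges 240 bp apart, and the overlap was 93.8% of the union. A neighbouring region at 84180882 to 84183996 had peaks summing to 2840 and 2368 bp. It reached 73 bp into the gene's lower-coordinate end in WT replicate 2 and stopped 53 bp short of the gene in WT replicate 1. Between the regions 943 bp of the gene lay under no WT peak.

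The other 4 WT-only regions of the Zfp36l2 window all lay below the gene's start coordinate. They stood at 84162741 to 84163750 (1010 and 740 bp in WT replicates 1 and 2), 84148432 to 84148955 (524 and 242 bp), 84145502 to 84146780 (888 and 1042 bp) and 84135406 to 84135803 (398 and 302 bp). Their distances from the gene ran from 20.2 to 48.1 kb, and no other protein-coding gene was nearer to any of them. All 4 met a long noncoding RNA gene, Gm19696 or Gm41640. On the opposite side, in the stretch of Thada that the window holds, WT replicate 2 had 1 peak of 388 bp and WT replicate 1 none. Past the window lay further regions with this address: 10 WT-only regions had Zfp36l2 as their nearest protein-coding gene, against 6 in the window. Whether they act on Zfp36l2 was not tested.

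The counts depended on where the windows ended. At Zfp36l2, 2 WT-only regions lay within 10 kb, 6 within 50 kb and 11 within 100 kb. The farthest WT peaks inside lay 38.1 kb from Zfp36, 42.4 kb from Zfp36l1 and 48.2 kb from Zfp36l2. The nearest WT peaks outside lay 56.8, 55.3 and 51.9 kb away.

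Coverage by peaks was highest in the gene body or in the first 5 kb beside it. Peaks of WT replicate 1 lay over 40.6% of the Zfp36 body and those of WT replicate 2 over 60.2%, a mean of 50.4% ± 13.9 (SD, n = 2). The Zfp36l2 body was covered by 74.7% and 76.6%, a mean of 75.6% ± 1.35 (SD, n = 2). The Zfp36l1 body was covered by 14.1% and 10.1%, a mean of 12.1% ± 2.83 (SD, n = 2). The ranges of these WT values did not overlap between any of the genes, with Zfp36l2 highest and Zfp36l1 lowest. With each list limited to peaks of at least its median width, the means were 36.3% at Zfp36, 2.32% at Zfp36l1 and 74.7% at Zfp36l2. With 1 kb added on both sides of the gene they were 62.6%, 19.5% and 74.5%, in the same order. KO coverage was 0% in each body and library, which is usual, since only 2.42% of all protein-coding genes had a KO peak even within 10 kb. Together, 41.9% of the 3 bodies lay under WT peaks. Over all protein-coding genes the mean body coverage was 2.08% in WT replicate 1 and 1.64% in WT replicate 2, with medians of 0%. Among the 6296 genes with a body of 1 to 10 kb, 0.222% were covered as much as Zfp36l2, 0.715% as much as Zfp36 and 8.39% as much as Zfp36l1.

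**Figure D3:**
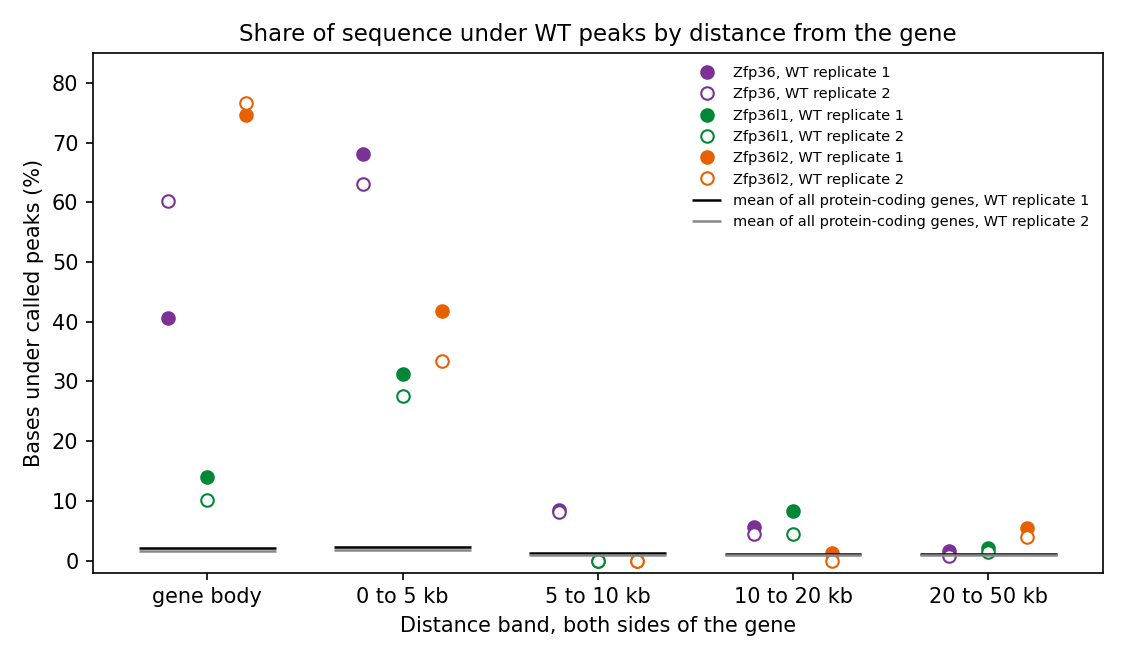
Percent of bases under called peaks in the gene body and in distance bands on both sides, for each gene in WT replicate 1 (filled) and WT replicate 2 (open); horizontal lines are the means of all 21779 protein-coding genes. All 3 genes lie above the means in the body and up to 5 kb, and Zfp36l1 and Zfp36l2 are at 0 from 5 to 10 kb.

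In the 5 kb on each side, Zfp36 was covered by 68.1% in WT replicate 1 and 63.1% in WT replicate 2. These were the highest values of the 21779 genes in both libraries, and the next gene stood at 53.9% and 42.9%. Zfp36l2 was covered by 41.8% and 33.4%, ranks 9 and 8, and Zfp36l1 by 31.2% and 27.6%, ranks 47 and 35. The all-gene means were 2.24% and 1.77%. Part of the Plekhg2 region, 3.02 kb from Zfp36, lies in its 5 kb flank and counts towards this coverage. That region lies outside a flank of 3 kb, with which Zfp36 ranked 6 and 2 in WT replicates 1 and 2. With 10 kb, which takes the region in, Zfp36 ranked 1 in both. The flank widths and ranks were chosen with the peak positions in view. From 20 to 50 kb, Zfp36l2 had 5.40% and 3.88% under peaks, Zfp36l1 had 2.13% and 1.42%, and Zfp36 had 1.57% and 0.807%. The all-gene means there were 1.19% and 0.872%, so in WT replicate 2 Zfp36 lay below the mean.

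The widest regions lay at the genes themselves or next to them. Ranked by the summed width of the WT peaks among all 16501 reproducible WT regions, the region over Zfp36l2 came 25th, the start region of Zfp36l1 72nd, the upstream region of Zfp36 96th and the lower region of Zfp36l2 134th. Summed widths were 7568, 5890, 5554 and 5208 bp. Next came the Plekhg2 region near Zfp36, at rank 302, and the start region of Zfp36, at rank 376, with 4074 and 3776 bp. The other 14 regions had summed widths between 482 and 1930 bp. The narrowest was the poorly matched region inside Zfp36l1, at rank 16060.

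**Figure D4:**
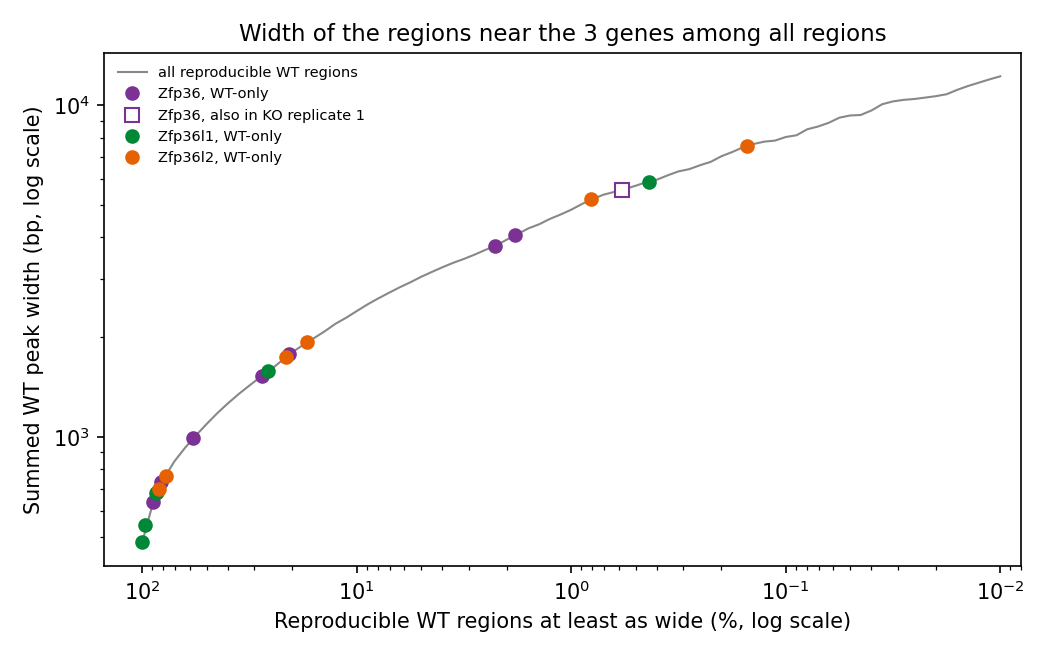
Summed WT peak width in bp against the percent of reproducible WT regions at least as wide (both axes log scale); the line is all 16501 regions and points are the 20 regions near the 3 genes. Of the 20 regions, 4 fall among the widest 1% of regions, and 1 of these, at Zfp36, is also called in KO replicate 1.

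The share of WT peaks at the 3 genes that met a peak of the other WT list was close to that of the whole lists. Their median overlap was lower. In WT replicate 1, 23 of the 34 peaks (67.6%) met a peak of WT replicate 2, against 61.5% of its whole list. In WT replicate 2, 25 of the 29 peaks (86.2%) met a peak of WT replicate 1, against 85.8%. The overlap of the WT peaks had a median of 63.4% of their union over the 20 regions, from 16.1% to 95.8%, against 72.0% over all reproducible regions (quartiles 56.6% and 84.0%). By gene the median was 56.9% at Zfp36, 70.5% at Zfp36l1 and 70.2% at Zfp36l2.

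Peaks found in a single WT library were narrow. The 11 such peaks of WT replicate 1 had a median width of 240 bp, the smallest width of the list, and the widest was 708 bp, upstream of Zfp36l1. The 4 such peaks of WT replicate 2 ran from 242 to 402 bp. Shared peaks had medians of 782 bp in WT replicate 1 and 648 bp in WT replicate 2. Over the whole lists, shared peaks had medians of 588 and 492 bp and peaks of a single library 304 and 242 bp.

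**Figure D5:**
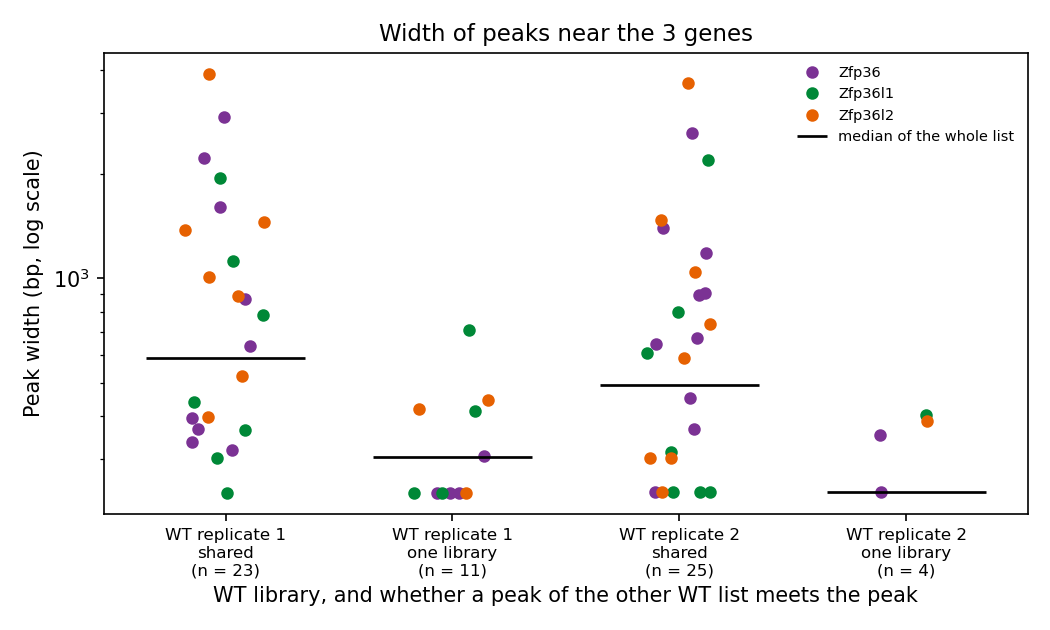
Width in bp (log scale) of each WT peak near the 3 genes, split by library and by whether a peak of the other WT list meets it; black lines are medians of the whole lists. The 23 and 25 shared peaks reach 3902 and 3666 bp, whereas the 11 and 4 peaks of a single library reach 708 and 402 bp.

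The genes most like each member in body coverage over the 4 libraries were picked among bodies of 1 to 10 kb by Euclidean distance in percentage points. For Zfp36 they were Rpl41, a ribosomal protein gene (34.8% in WT replicate 1 and 57.2% in WT replicate 2, distance 6.56), Jund, an AP-1 gene (49.7% and 55.9%, distance 10.1), and Irf2bp2, a co-repressor gene (47.5% and 51.1%, distance 11.5). For Zfp36l2 they were Kcna3, a T cell potassium channel gene (79.3% and 78.8%, distance 5.16), Tmem251 (69.1% and 74.1%, distance 6.04) and Gm20346 (85.3% and 76.7%, distance 10.6). For Zfp36l1 they were Trp53i13 (13.8% and 10.1%, distance 0.330), Ndufa2, a respiratory complex I gene (14.3% and 9.53%, distance 0.588), and Srsf7, a splicing factor gene (14.1% and 9.49%, distance 0.597). All 9 genes had 0% in both KO libraries, but the KO values entered the distance, so the choice itself favoured this. Low KO coverage is also usual, since only 2.42% of all protein-coding genes had a KO peak within 10 kb.

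Smad4 regions also lay near most genes of a wider set tied to mRNA decay, which is not limited to machinery that these proteins recruit. A list of 38 genes took in CCR4-NOT subunits, BTG/TOB adaptors, the PAN2-PAN3 deadenylase, decapping and exonuclease genes, other binders of AU-rich elements, Roquin and Regnase genes and the kinase gene Mapkapk2. Of the 38, 36 (94.7%) had a WT-only region within 10 kb, against 44.3% of all protein-coding genes. Within 50 kb the contrast was smaller, with 36 (94.7%) against 61.8%. The list was not matched to those genes by gene length or by expression, which was not measured. None had a KO peak within 10 kb, and only 2.42% of all protein-coding genes had one. The median was 2 WT-only regions within 10 kb, against 0 over all genes. The exceptions were the CCR4-NOT subunit gene Cnot9 and the decapping enzyme gene Dcp2, which were singled out after their values were seen. The widest WT-only regions of the list lay at Cnot2, another CCR4-NOT subunit gene (2322 and 2654 bp in WT replicates 1 and 2), and at the adaptor genes Btg1 (2176 and 2106 bp) and Tob2 (2126 and 2070 bp).

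Genes whose transcripts are known targets of the family formed the other list. Of its 15 genes, 11 (73.3%) had a WT-only region within 10 kb, with a median of 2, against 44.3% and a median of 0 over all protein-coding genes. Within 50 kb it was 14 genes (93.3%), against 61.8%. This list was not matched by gene length or expression either. The widest WT-only regions within 10 kb lay at Myc (1946 and 1804 bp in WT replicates 1 and 2), Notch1 (1924 and 1356 bp) and Vegfa (2082 and 1088 bp). Tnf, the best known target of tristetraprolin, had 4 WT-only regions within 10 kb and 1 peak of KO replicate 2. Il2, the T cell growth factor gene, had 3 and 1 peak of KO replicate 1. Those without a WT-only region within 10 kb were the cytokine genes Csf2 and Il3, the chemokine gene Cxcl2 and the cyclooxygenase gene Ptgs2, named after their values were seen. A KO peak within 10 kb was thus found at 2 of the 15 genes (13.3%), against 2.42% of all protein-coding genes.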

How the data were processed

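Peak lists of 4 ChIP samples were used, as deposited by the authors with chromosome, start and end only, 1 list per sample. Tools named in the submitters' processing notes are HOMER 4.8.3, Bowtie and Trim Galore, with the build mm10. Their roles, the peak thresholds and how inputs entered are not given in the sources used. Starts were converted to 1-based positions. Gene bounds came from RefSeq on GRCm38.p6, the same assembly; genes starting below 3 Mb, except on Y, were left out. Overlaps needed 1 bp. Motifs were searched in the first-listed promoter of each gene. The members, gene lists and comparisons were chosen with earlier results of these data known. Named genes were the members, genes at their regions, the 3 genes per list with the widest WT-only region within 10 kb, genes of a list with a KO peak there, and the 3 nearest in body coverage. No tests were made. Interval functions were tested on simulated data. The alternatives changed window, overlap rule, peak width and libraries. Versions were pandas 2.3.3, numpy 2.4.6, matplotlib 3.10.9 and Python 3.11.15.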

Additional observations from a re-analysis of the deposited data

How the results depend on the processing

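The 19 WT-only and 20 reproducible WT regions fell to 10 and 11 with a window of 10 kb and to 10 and 11 when peak centres had to lie within 100 bp. With only the peaks of at least the median width of each list, both counts were 11. Leaving out each list in turn gave 19 to 33 WT-only regions, and leaving out each WT list gave 29 to 34 reproducible ones, the highest without WT replicate 2, where only the list of WT replicate 1 was needed. Within 10 kb the peaks fell from 34 to 17 in WT replicate 1 and from 29 to 18 in WT replicate 2. Pooled coverage of the 3 bodies, averaged over the WT libraries, moved from 41.9% to 49.0% with 1 kb added on both sides, and to 34.3% with the wider peaks. In the other 25 recomputed values of these results, counts stayed within 1.5 times of the main one. These include the KO peak counts, which had little room to move: 1 in KO replicate 1 and 0 in KO replicate 2 at every window. For single genes, 46 values stayed within that limit or within 1 SD and 35 did not. The stricter overlap rules applied to WT peaks only, and the overlap with KO peaks stayed at 1 bp. Requiring no KO peak within 1 kb of a region gave 18 WT-only regions, with 6 at Zfp36. No paired analysis was possible because no result comes from a test. Unknown read depth limits every count of peaks.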

Other observations

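Several long noncoding RNA genes next to Zfp36l1 and Zfp36l2 carried WT-only regions. Gm19696, 27.5 kb from Zfp36l2, met 3 of them, and held 4 and 3 peaks of WT replicates 1 and 2. Gm41640, 0.99 kb from Zfp36l2, met 2, with 5 and 3 peaks. Gm36279 begins 97 bp beyond the higher-coordinate end of Zfp36l2 and shared the widest region with it. Near Zfp36l1, 2310015A10Rik met 2 WT-only regions and Gm36660 met 1. None of these genes had a KO peak, and only 2.42% of protein-coding genes had one even within 10 kb. A WT-only region met the body of 34.8% of protein-coding genes. The shares over all long noncoding RNA genes are not given here.

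Zfp36l3, the X-linked family member of rodents, had no peak in any of the 4 lists within 50 kb (chromosome X, 53772686 to 53776394). It was looked up after the values of the other genes were seen.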
